A study of Mus musculus with 10 samples.

Results

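The cytochrome P450 family 2 genes were described in 10 mouse livers as every gene model whose symbol begins with Cyp2, a subfamily letter and a number, pseudogenes left out. This rule found 47 genes among 59408 gene models, 23454 of which carried a symbol. Of these, 38 had a value of at least 10 normalised reads in at least 3 of 10 livers and are described here, and 9 stayed below that floor. The 38 comprised 4 Cyp2a, 3 Cyp2b, 13 Cyp2c, 8 Cyp2d and 4 Cyp2j genes, and the single Cyp2e, Cyp2f, Cyp2g, Cyp2r, Cyp2s and Cyp2u genes. All mice were C57Bl/6 with no genetic change in the labels, and all livers were taken at day 35. The 4 control mice carried numbers 1 to 4 and were untreated: they received neither adjuvant nor glycolipid nor medicated diet. The 3 mice of the primary biliary cholangitis (PBC) model, numbers 7 to 9, were given 100 µg of 2-octynoic acid coupled to bovine serum albumin (2OA-BSA) into the peritoneum. The antigen came in complete Freund's adjuvant at day 0 and in incomplete adjuvant at days 14 and 28, with 2 µg of α-galactosylceramide into a vein at the first 2 injections. The 3 mice of the primary sclerosing cholangitis (PSC) model, numbers 11, 13 and 14, ate food with 0.089% DDC (3,5-diethoxycarbonyl-1,4-dihydrocollidine), which is toxic to the bile ducts, for 2 weeks. They then had 1 week of plain food and 1 further week of DDC. The labels leave out age, sex and hour of collection. Reads of 4 Y-linked genes were 0 in all 10 livers.

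Cytochromes P450 are heme enzymes of the endoplasmic reticulum that oxidise lipid-soluble substrates with electrons passed on by P450 oxidoreductase. Family 2 is the largest family of these enzymes in the mouse, and it arose by repeated tandem duplication, so that close relatives lie side by side in clusters. In hepatocytes its members oxidise drugs and solvents (Cyp2b, Cyp2d, Cyp2e), steroids (Cyp2a, Cyp2d), bile acids (Cyp2a12, Cyp2c70) and arachidonic acid (Cyp2c, Cyp2j). Many are known for control by the receptor CAR, by the pituitary growth hormone rhythm that differs between males and females, and by daily clock factors.

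The libraries held 38272053 to 95422289 recovered reads each, and control 2 had 13.7% of its signal from mitochondrial genes against at most 8.67% in the other livers. All values are reads per gene after DESeq2 normalisation by the authors, called normalised reads; where a value is per kilobase (kb) it was divided by the length of the longest coding transcript of the gene in GENCODE M21. Means are given ± SD with n = 4 control, 3 PBC and 3 PSC livers. A change is a log2 difference of normalised reads plus 1 from a limma fit over 18390 gene models, and it is called at an adjusted p of 0.05 or less. Close relatives may share reads: 8 of the 38 genes had more than 20% of their transcript's 75-base windows in the transcript of another gene as well, 20 had some up to 20%, and 10 had none. The 8 were Cyp2c40 (57.1%), Cyp2c69 (43.2%), Cyp2c67 (36%), Cyp2c68 (28.5%), Cyp2d10 (26.7%), Cyp2a5 (25.5%), Cyp2a4 (22.1%) and Cyp2d11 (21.9%). No source used here says how such reads were counted, so the split between relatives is uncertain, above all for these 8. Among the called genes with some up to 20%, the largest shares were those of Cyp2c50 (17.8%), Cyp2b13 (16.4%), Cyp2c54 (14.1%) and Cyp2c37 (13.8%). The transcripts of Cyp2c37, Cyp2c50 and Cyp2c54 are 94.8% to 95.8% identical to each other. The model of Cyp2c29 also carried the name of a pseudogene, Cyp2c53-ps, and that of Cyp2d11 the name of a microRNA, Mir7684.

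The genes covered a wide range of levels. Per kb of transcript, Cyp2e1 had the highest control level, 92244 ± 28068 normalised reads per kb, and it kept the first rank in both models. It was followed in controls by Cyp2c69 with 78612 ± 39346 per kb, Cyp2c40 with 42207 ± 10904, Cyp2a4 with 41299.8 ± 33286 and Cyp2d26 with 40504 ± 8672. Cyp2c37 and Cyp2c68 came next with 39718 ± 13060.5 and 39259 ± 3418 per kb. Neighbours among these 7 genes differed by less than the larger SD of the pair. Among the controls, Cyp2j5 varied least, with a coefficient of variation of 3.56%, and Cyp2a5 most, with 157%. The order differed in the diseased livers: in PBC the second rank per kb belonged to Cyp2c29, which had been eighth in controls, and in PSC it belonged to Cyp2d26. Cyp2c69 stood at rank 10 in both models. At the low end of the controls were Cyp2j8, Cyp2s1 and Cyp2d34 with 11.5 ± 7.34, 9.11 ± 3.33 and 5.75 ± 2.86 per kb.

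Members near the floor were few. Ranked by the third highest liver, the 3 genes just inside were Cyp2d34 (14.1 normalised reads), Cyp2j8 (16.7) and Cyp2s1 (34), while just outside were Cyp2c65 (1.88), Cyp2j13 (1.59) and a group with 0. The 9 genes below the floor were Cyp2c65, Cyp2c66, Cyp2b19, Cyp2b23, Cyp2j11, Cyp2j12, Cyp2j13, Cyp2t4 and Cyp2w1. Their highest value in any liver was 4.97 normalised reads, and Cyp2c66, Cyp2t4 and Cyp2w1 were at 0 in all 10.

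**Figure D1:**
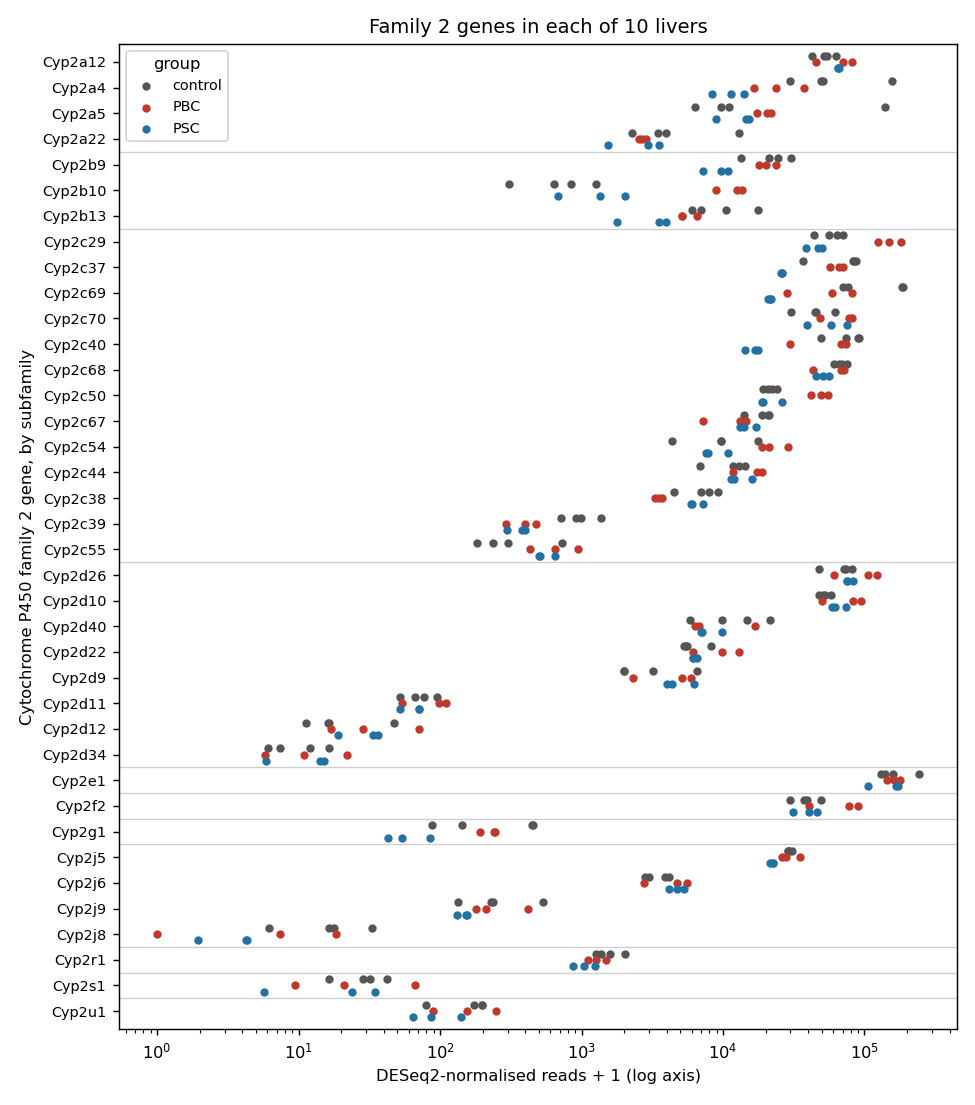
Normalised reads plus 1 of the 38 described genes on a log axis, by subfamily; each point is 1 liver of the control (n = 4), PBC (n = 3) or PSC (n = 3) group. The red PBC points of Cyp2b10 and Cyp2c29 lie to the right of all others in their rows, and the blue PSC points of Cyp2c40, Cyp2c69 and Cyp2b13 lie to the left.

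In the PBC model, 4 of 38 genes rose (10.5%, against 7.60% of all gene models tested) and 2 fell (5.26%, against 2.34%). Those that rose were the drug-inducible Cyp2b10 and the Cyp2c genes Cyp2c29, Cyp2c50 and Cyp2c54; those that fell were Cyp2c38 and Cyp2c39. In the PSC model none of the 38 rose at the adjusted threshold in limma, where 8.25% of all models did, nor did any at an unadjusted p under 0.05 or in edgeR or DESeq2. There, 8 of 38 fell (21.1%, against 6.48%): Cyp2a4, Cyp2b9, Cyp2b13, Cyp2c37, Cyp2c39, Cyp2c40, Cyp2c69 and Cyp2g1. The median change of the 38 genes was 0.00 in PBC, beside 0.01 over all models, and -0.35 in PSC, beside 0.06. Both models share their control livers, so these counts are not independent of each other. Near copies that may share reads are among the 38 genes, so calls within a count are not independent either, here and below. Of the 38 genes only Cyp2c39 was called in both. In whole liver, fewer hepatocytes and less RNA per hepatocyte cannot be told apart. Without PBC 8 the number that rose in PBC was 8, and without PBC 7 or without PBC 9 the number that fell was 1; DESeq2 called 5 lower, with Cyp2a4, Cyp2c67 and Cyp2c69 in addition. Without control 3, 1 gene was called higher in PSC, Cyp2c55.

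**Figure D2:**
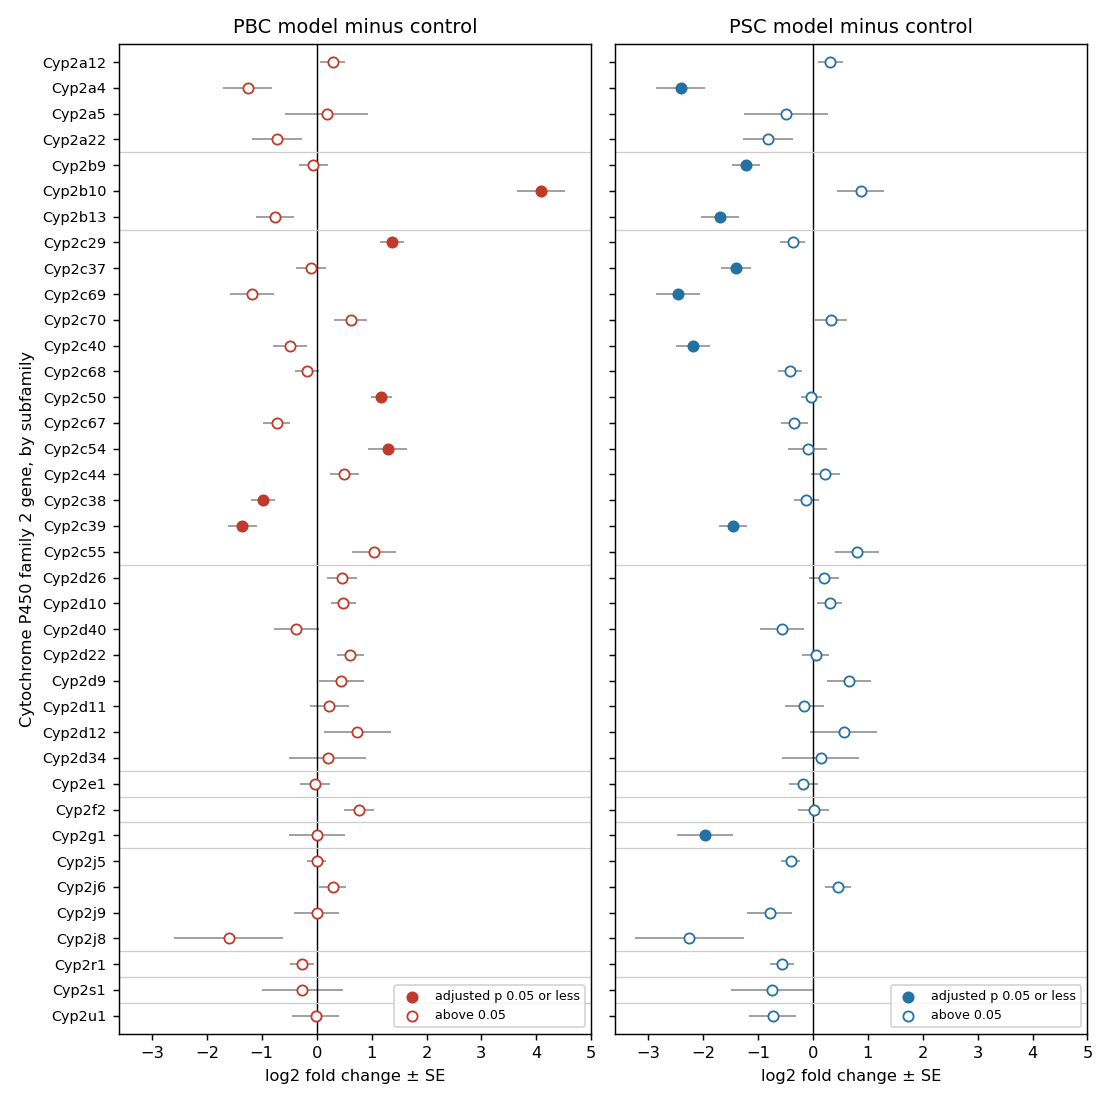
Log2 change against control with its standard error for the 38 genes, PBC on the left and PSC on the right, from limma over all gene models; filled points passed an adjusted p of 0.05 and open points did not. In PBC 4 filled points lie to the right of 0 and 2 to the left, and in PSC all 8 filled points lie to the left.

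Of the Cyp2a genes, Cyp2a4, a testosterone hydroxylase that is female-biased in mouse liver, fell in PSC. Cyp2a4 (GSMG0034190, chromosome 7, 26307169 to 26315088, mm10) read 29601, 50715, 49466 and 157334 normalised reads in controls 1 to 4, 37451, 23569 and 16532 in PBC 7 to 9, and 8325, 11353 and 14154 in PSC 11, 13 and 14. Every PSC liver was below every control, and control 4 stood far above the other controls. In PSC it fell by 2.41 (SE 0.45, adjusted p = 0.00419) on the log2 scale, and without control 4 it fell by 1.93 (adjusted p = 0.00247). In PBC the difference was -1.26 (SE 0.45, adjusted p = 0.0931), with PBC 7 inside the control range; it passed the threshold without control 1 (-1.59, adjusted p = 0.0482) and with DESeq2 (-1.52, adjusted p = 0.0106). Cyp2a5, the coumarin hydroxylase, has a transcript 98.3% identical to that of Cyp2a4 over 1738 aligned bases. It read 9683, 6377, 11074 and 138984 in controls 1 to 4, 22003, 17523 and 20436 in PBC and 8864, 14457 and 15315 in PSC. Control 4 was again apart, above all 9 other livers. With all livers the difference was 0.18 (SE 0.76, adjusted p = 0.91) in PBC and -0.49 (SE 0.76, adjusted p = 0.708) in PSC; without control 4 the PBC difference was 1.18 (adjusted p = 0.0148) and the PSC difference turned to 0.51 (adjusted p = 0.225). Cyp2a22 had 2258 to 12910.2 in controls, 2557 to 2869.7 in PBC and 1549 to 3539.8 in PSC, with control 4 again the highest and differences of -0.73 (SE 0.46, adjusted p = 0.334) and -0.82 (SE 0.46, adjusted p = 0.247). In Cyp2a12, which hydroxylates bile acids, control 4 was also the highest control, but it did not stand apart from the others. The gene read 52126, 54634, 42658 and 63231 in controls, 82016, 45776 and 70992 in PBC and 65151, 64873 and 66575 in PSC. Its differences were 0.29 (SE 0.23, adjusted p = 0.453) in PBC and 0.32 (SE 0.23, adjusted p = 0.382) in PSC. PSC values of Cyp2a12 lay close together just above the controls, and PBC overlapped both.

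The 250 bases before the start of Cyp2a4 and Cyp2a5 are shown because control 4 had the highest value of both genes. They are from RefSeq on GRCm38.p6, read 5′ to 3′ on the strand of the gene. For Cyp2a4, and for Cyp2c69 further on, the RefSeq start lies slightly inside the authors' gene model. The windows are printed with matches to 2 motifs in capitals: TTGCATAA, which is at once a match to the D-box letters TTATGNAA on the other strand and to the C/EBP letters TTGCNNAA, and the TATA letters TATAAA.
Cyp2a4, chr7:26306942-26307191 (+): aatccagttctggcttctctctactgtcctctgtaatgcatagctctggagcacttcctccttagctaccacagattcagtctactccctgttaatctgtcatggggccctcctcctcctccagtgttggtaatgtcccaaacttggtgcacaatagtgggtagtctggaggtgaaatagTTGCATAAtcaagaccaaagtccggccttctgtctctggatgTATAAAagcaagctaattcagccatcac
Cyp2a5, chr7:26835089-26835338 (+): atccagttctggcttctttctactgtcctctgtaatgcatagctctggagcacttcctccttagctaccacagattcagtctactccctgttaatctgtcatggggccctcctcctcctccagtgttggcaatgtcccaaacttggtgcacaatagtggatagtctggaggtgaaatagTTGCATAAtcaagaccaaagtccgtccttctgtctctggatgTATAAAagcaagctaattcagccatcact
Over 249 aligned bases the pair were 98.4% identical. The D-box letters, looked for on both strands, occurred in 3 of the 31 members with a promoter entry and in 3.07% of 32851 RefSeq promoters of the same length. The 3 were Cyp2a4, Cyp2a5 and Cyp2b10, of which Cyp2a4 and Cyp2a5 are near copies and do not count as separate instances. D-box letters are those read by Dbp, Tef and Hlf, transcription factors whose level follows the time of day. Dbp read 97.2, 35.9, 1264 and 8406 normalised reads in controls 1 to 4, Tef 411, 217, 444 and 2900.2, and Hlf 281, 350.4, 219.7 and 736. Dbp ranged from 164 to 260.3 in PBC and from 139.8 to 1082 in PSC. Por, which passes electrons to every P450 of the family, read 28508 in control 4 against 10159 to 10627 in the other controls. Control 4 was the highest of the 10 livers for all 3 factors, as it was for Cyp2a4, Cyp2a5 and Cyp2a22. Cyp2a22 had no D-box match in its window. Control 4 was also the highest for Cyp2b9, Cyp2b13, Cyp2c38, Cyp2c67 and Cyp2e1, none of which had a D-box match. Cyp2b10, which had a match, was highest in PBC 8. Among the controls alone, Cyp2b10 was highest in control 4, at 1265 normalised reads against 306 to 848. The part of these factors in the Cyp2a values was not tested.

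The 3 Cyp2b genes moved in different ways. Cyp2b10, the classical CAR target that oxidises many drugs, rose in PBC, and the female-biased pair Cyp2b9 and Cyp2b13 fell in PSC. Cyp2b10 (GSMG0034189, chromosome 7, 25897658 to 25926624) read 848, 306, 636 and 1265 in controls 1 to 4, 8928, 13539 and 12516 in PBC 7 to 9 and 2042, 684 and 1351 in PSC 11, 13 and 14. The lowest PBC liver lay above every control and every PSC liver. Per kb it went from rank 29 of 38 in controls to rank 21 in PBC. The change in PBC was 4.08 (95% interval 3.16 to 5.01, adjusted p = 0.000123), and in PSC, where the livers overlapped the controls, it was 0.87 (SE 0.43, adjusted p = 0.194). Cyp2b9 (GSMG0034194, chromosome 7, 26173409 to 26210660) read 24505, 20987, 13363 and 30004 in controls, 18014, 19995 and 23786 in PBC and 7259.7, 10788 and 9696 in PSC. All 3 PSC livers were below the lowest control, while PBC lay within the control range. In PSC it fell by 1.22 (SE 0.26, adjusted p = 0.00792), and the PBC difference was -0.06 (SE 0.26, adjusted p = 0.914). Cyp2b13 (GSMG0034193, chromosome 7, 26061495 to 26096196) read 10552, 6038, 7022 and 17696 in controls, 5170.0, 5109.6 and 6541 in PBC and 1791, 3930.3 and 3528 in PSC. Its PSC livers were also below all controls, and 2 of the PBC livers were just below them. In PSC it fell by 1.69 (SE 0.35, adjusted p = 0.00701), and in PBC the difference was -0.76 (SE 0.35, adjusted p = 0.182).

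The promoters of the 3 genes are shown to set the pair that fell in PSC beside the gene that rose in PBC. Capitals mark AGGTCA, the half-site of nuclear receptors such as CAR, and the C/EBP letters TTGCNNAA, which in Cyp2b10 are also a D-box match.
Cyp2b9, chr7:26173159-26173408 (+): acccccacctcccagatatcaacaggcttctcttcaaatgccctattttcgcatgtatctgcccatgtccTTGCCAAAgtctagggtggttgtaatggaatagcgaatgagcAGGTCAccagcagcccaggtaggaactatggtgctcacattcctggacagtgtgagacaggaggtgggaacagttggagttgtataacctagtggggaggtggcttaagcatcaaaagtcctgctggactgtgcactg
Cyp2b13, chr7:26061245-26061494 (+): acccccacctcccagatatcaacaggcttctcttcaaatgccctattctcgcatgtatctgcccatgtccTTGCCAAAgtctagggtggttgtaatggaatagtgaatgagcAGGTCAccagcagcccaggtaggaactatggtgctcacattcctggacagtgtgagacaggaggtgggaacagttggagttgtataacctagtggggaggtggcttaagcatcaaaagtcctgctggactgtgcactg
Cyp2b10, chr7:25897408-25897657 (+): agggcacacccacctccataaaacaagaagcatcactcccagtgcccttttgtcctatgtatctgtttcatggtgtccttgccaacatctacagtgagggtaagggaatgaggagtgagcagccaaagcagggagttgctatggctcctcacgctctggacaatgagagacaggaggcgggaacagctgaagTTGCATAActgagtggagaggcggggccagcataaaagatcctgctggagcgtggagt
Cyp2b9 and Cyp2b13 were 99.2% identical over all 250 bases, and each was 74.6% identical to Cyp2b10 over 240 aligned bases. AGGTCA was in 6 of 31 member promoters (19.4%) and in 14.0% of all promoters of this length, so this share is near the background. The well-known distal element that CAR binds upstream of Cyp2b10 lies outside this window.

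**Figure D3:**
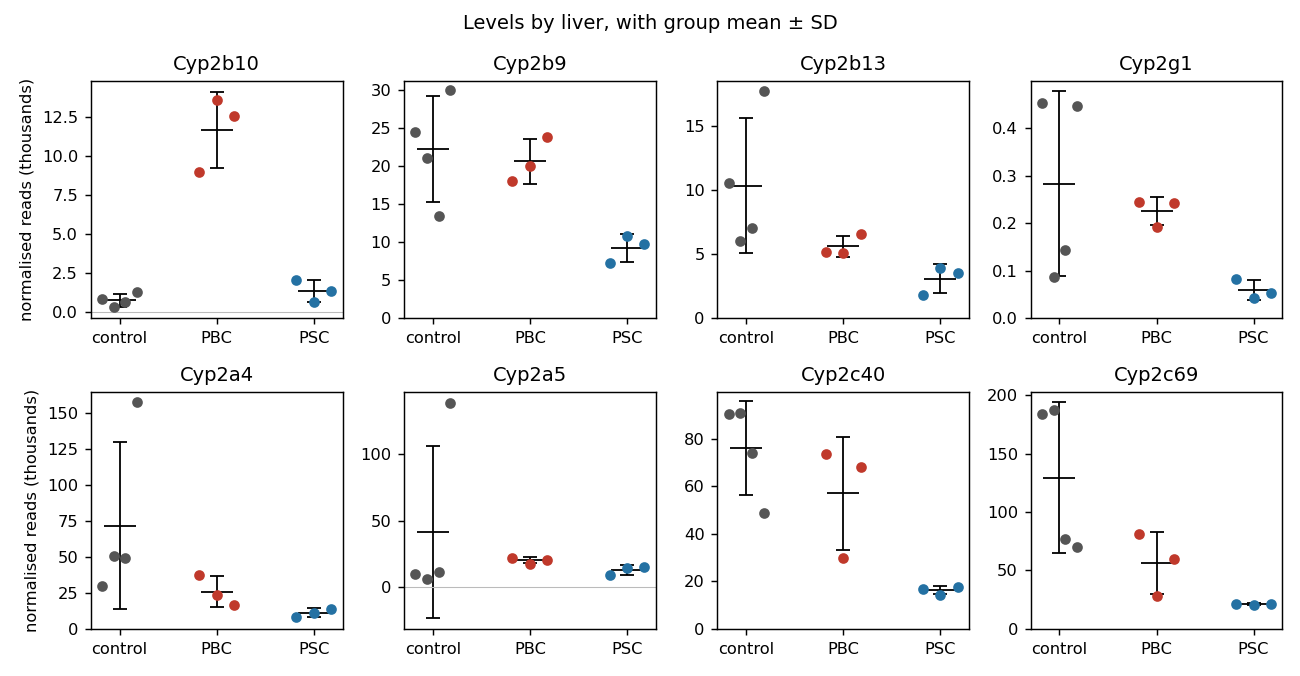
Normalised reads of 8 genes on linear axes in each liver, with the group mean as a horizontal line and the SD as whiskers. In the Cyp2b10 panel the 3 PBC livers stand alone, in the Cyp2a4 and Cyp2a5 panels 1 control (number 4) stands above all others, and in the Cyp2b9, Cyp2b13, Cyp2g1, Cyp2c40 and Cyp2c69 panels the 3 PSC livers lie below every control.

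Among the 13 Cyp2c genes, 3 rose (23.1%, against 7.60% of all gene models) and 2 fell (15.4%, against 2.34%) in PBC, and 4 fell in PSC (30.8%, against 6.48%). Near copies that may share reads are among these 13, so their calls are not all separate instances. The risers in PBC are epoxygenases, which turn arachidonic acid into lipid mediators. Cyp2c29 (GSMG0019666, chromosome 19, 39229254 to 39330713) read 56374, 64364, 43741 and 70568 in controls 1 to 4, 149400.3, 180941 and 124596 in PBC and 46693, 38707 and 49773 in PSC. All PBC livers were above all others, and PSC overlapped the controls. The PBC change was 1.37 (SE 0.22, adjusted p = 0.00219) and the PSC difference -0.37 (SE 0.22, adjusted p = 0.294). Cyp2c50 (GSMG0019669, chromosome 19, 40089679 to 40113955) read 24164, 20652, 19294 and 22199.6 in controls, 55639, 49389 and 41916 in PBC and 26014, 18843 and 19071 in PSC, with the same separation of PBC from the rest. It changed by 1.18 (SE 0.19, adjusted p = 0.0021) in PBC and differed by -0.03 (SE 0.19, adjusted p = 0.936) in PSC. Cyp2c54 (GSMG0020363, chromosome 19, 40037940 to 40073821), the neighbour of Cyp2c50, read 17748, 9758, 9651 and 4354 in controls, 28802, 18807 and 21287 in PBC and 10846, 7836 and 7622 in PSC. Its PBC livers were all above the controls, though control 1 came close to PBC 8. The rise in PBC was 1.29 (SE 0.36, adjusted p = 0.0381). This call was lost with edgeR (adjusted p = 0.074), with equal totals, with only the groups compared, and without any 1 of controls 2 to 4, PBC 7, PBC 9 or the PSC livers (adjusted p from 0.0504 to 0.141).

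The genes that fell in PBC were Cyp2c38 and its neighbour Cyp2c39, whose transcripts are 93.8% identical; Cyp2c39 is known to hydroxylate retinoic acid. Cyp2c38 (GSMG0020358, chromosome 19, 39389556 to 39463076) read 7915, 6952, 4478 and 9285 in controls, 3332, 3507 and 3711 in PBC and 5938, 7198 and 6061 in PSC. PBC lay below all controls, and PSC overlapped them. In PBC it fell by 0.98 (SE 0.23, adjusted p = 0.0168), and the call was lost with only the groups compared and without PBC 7, PBC 9 or control 1 (adjusted p from 0.0511 to 0.0626). Cyp2c39 (GSMG0019667, chromosome 19, 39510822 to 39568529) read 1372, 720.1, 909 and 997 in controls, 400.4, 475 and 289.9 in PBC and 295, 399.5 and 379.6 in PSC. It was lower than every control in all 6 diseased livers. It fell by 1.35 (SE 0.26, adjusted p = 0.00531) in PBC and it fell by 1.45 (SE 0.26, adjusted p = 0.00289) in PSC.

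In PSC the falls in the Cyp2c cluster reached Cyp2c40, Cyp2c69 and Cyp2c37 beside Cyp2c39. Cyp2c40 (GSMG0020361, chromosome 19, 39767074 to 39812814), an arachidonic acid hydroxylase with higher levels in females, read 90370.2, 90837, 74201 and 48989 in controls 1 to 4, 73482, 29840.0 and 68036 in PBC and 16751, 14359 and 17740.3 in PSC. The 3 PSC livers were close together and far below the lowest control. In PSC it fell by 2.19 (SE 0.31, adjusted p = 0.00072), and in PBC, where only PBC 8 left the control range, the difference was -0.48 (SE 0.31, adjusted p = 0.354). Cyp2c69 (GSMG0020362, chromosome 19, 39842660 to 39886799), also female-biased, read 183816, 187033, 76577 and 70153 in controls, 81337, 28381 and 59398 in PBC and 21483, 20666 and 21688 in PSC. Controls 1 and 2 were above controls 3 and 4, and all PSC livers were lower than any control. Cyp2c69 fell by 2.45 (SE 0.40, adjusted p = 0.00176) in PSC, and the PBC difference was -1.18 (SE 0.40, adjusted p = 0.0784). In PBC it passed the threshold without control 4 (-1.42, adjusted p = 0.042) and with DESeq2 (-1.26, adjusted p = 0.0171). Cyp2c37 (GSMG0019668, chromosome 19, 39992423 to 40012243), an epoxygenase, read 86487, 84153, 36803 and 82339 in controls, 70003, 65728 and 57128 in PBC and 26179.9, 25568 and 26071 in PSC. Control 3 stood apart below the other controls, yet every PSC liver was lower still. In PSC it fell by 1.40 (SE 0.28, adjusted p = 0.00554), and without control 3 it fell by 1.70 (adjusted p = 9.26e-05).

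Cyp2c40 and Cyp2c69 are near copies, so that their split is uncertain: their transcripts are 97.8% identical and 32.7% of the windows of Cyp2c40 are also in Cyp2c69. Their promoters are shown because both fell and are as alike as the transcripts (98.6% over 220 aligned bases). Capitals mark the HNF4 letters CAAAGTCCA and, in Cyp2c69, the C/EBP letters TTGCNNAA. The HNF4 letters begin at -45 from the start in Cyp2c40 and at -75 in Cyp2c69. The window of Cyp2c40 therefore ends within the stretch that holds the C/EBP match in Cyp2c69. Its lack of a marked match cannot be read as a difference between the 2 genes, since the letters that follow were not examined.
Cyp2c40, chr19:39812815-39813064 (-): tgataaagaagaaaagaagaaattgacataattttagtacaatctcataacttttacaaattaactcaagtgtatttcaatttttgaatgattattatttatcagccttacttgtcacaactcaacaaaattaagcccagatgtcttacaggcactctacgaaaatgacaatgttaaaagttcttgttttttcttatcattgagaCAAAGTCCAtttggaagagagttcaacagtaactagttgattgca
Cyp2c69, chr19:39886770-39887019 (-): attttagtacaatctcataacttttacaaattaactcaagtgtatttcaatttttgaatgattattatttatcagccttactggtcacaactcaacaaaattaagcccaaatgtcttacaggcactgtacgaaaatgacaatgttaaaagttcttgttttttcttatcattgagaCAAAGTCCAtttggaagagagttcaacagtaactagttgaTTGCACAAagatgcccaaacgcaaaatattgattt
The HNF4 letters were in 5 of 31 member promoters and in 0.384% of all 32851 promoters. The 5 were Cyp2c40, Cyp2c67, Cyp2c68, Cyp2c69 and Cyp2c70; the first 4 are near copies, 92.9% to 98.6% identical in the aligned part, and do not count as separate instances. Of these 5, Cyp2c40 and Cyp2c69 fell in PSC, and Cyp2c67, Cyp2c68 and Cyp2c70 were not called, with differences of -0.33 (SE 0.25, adjusted p = 0.392), -0.41 (SE 0.22, adjusted p = 0.219) and 0.33 (SE 0.29, adjusted p = 0.484).

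Other Cyp2c genes were not called by limma with all livers. Cyp2c70, which makes the muricholic acids of rodent bile, read 30022 to 62091 in controls, 48773 to 81618 in PBC and 39405 to 74650.0 in PSC, and its PBC difference was 0.62 (SE 0.29, adjusted p = 0.199). Cyp2c67 ranged from 14148 to 21146, 7254 to 14658 and 13277 to 17017 in the 3 groups, with a PBC difference of -0.73 (SE 0.25, adjusted p = 0.0779); it was called lower in PBC with equal totals (-0.86, adjusted p = 0.0275) and with DESeq2 (-0.73, adjusted p = 0.0402). Cyp2c68 had 60992 to 74913, 43244 to 72092 and 45277 to 56100.2, and its PBC difference was -0.17 (SE 0.22, adjusted p = 0.654). Cyp2c44, an epoxygenase named Cyp2c23 in GENCODE, had 6851 to 14235, 11741 to 18790.0 and 11369 to 16039.8, with differences of 0.50 (SE 0.26, adjusted p = 0.243) and 0.23 (SE 0.26, adjusted p = 0.6). Cyp2c55, which is low in liver and better known from the colon, had 182 to 723, 429.6 to 948 and 499.8 to 646. Its differences were 1.04 (SE 0.40, adjusted p = 0.116) in PBC and 0.81 (SE 0.40, adjusted p = 0.195) in PSC; control 3 was the highest control, and without it both became calls, at 1.44 (adjusted p = 0.0117) and 1.21 (adjusted p = 0.0199). In their order along chromosome 19 the genes that moved did not form one block: Cyp2c29 rose in PBC beside Cyp2c38 and Cyp2c39, which fell, and Cyp2c40, Cyp2c69 and Cyp2c37, which fell in PSC, are consecutive.

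**Figure D4:**
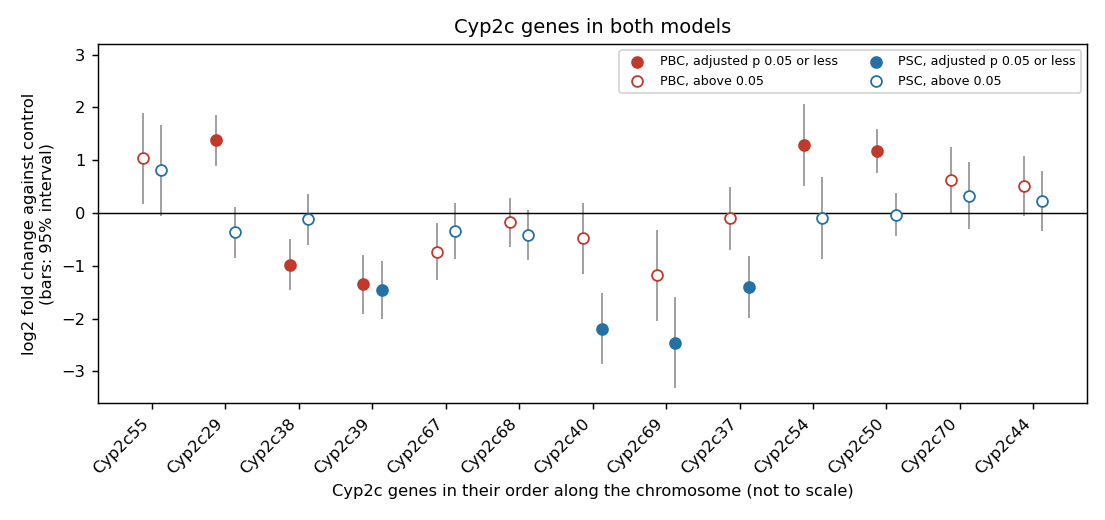
Log2 change against control of the 13 Cyp2c genes in chromosome order (spacing not to scale), with 95% intervals, for PBC (red) and PSC (blue); filled points passed an adjusted p of 0.05. In PBC, Cyp2c29, Cyp2c54 and Cyp2c50 are filled above 0, and Cyp2c38 and Cyp2c39 are filled below 0. In PSC, Cyp2c39, Cyp2c40, Cyp2c69 and Cyp2c37 are filled below 0.

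None of the 8 Cyp2d genes was called in either model with limma, and 1 had an unadjusted p under 0.05 in PBC (Cyp2d22) and none in PSC. Against control, edgeR and DESeq2 called none of them. With 7.60% of all gene models higher and 2.34% lower in PBC, and 8.25% and 6.48% in PSC, the absence of a call among 8 genes is near the background. The most abundant, Cyp2d26, read 74575, 72191, 47491 and 81171 in controls, 106705, 60798 and 123449 in PBC and 74805, 75749 and 82856 in PSC. PBC 7 and PBC 9 were above all other livers and PBC 8 was within the control range. The differences were 0.46 (SE 0.27, adjusted p = 0.296) in PBC and 0.20 (SE 0.27, adjusted p = 0.653) in PSC. The same split of PBC 8 from PBC 7 and PBC 9 held for Cyp2d10 and Cyp2d22, the latter being the mouse gene most often set beside human CYP2D6. Cyp2d10 read 82670.3, 49762 and 93976 in PBC against 47660.3 to 57966 in controls, a difference of 0.49 (SE 0.23, adjusted p = 0.201). Cyp2d22 read 9795, 6121 and 12965 against 5286 to 8243, a difference of 0.61 (SE 0.24, adjusted p = 0.128). Without PBC 8 these genes were called in PBC, Cyp2d26 at 0.77 (adjusted p = 0.0458), Cyp2d10 at 0.76 (adjusted p = 0.0207) and Cyp2d22 at 0.91 (adjusted p = 0.014). Cyp2d9, a testosterone hydroxylase with male-biased expression, had 1991 to 6580.4, 2325 to 5969 and 3989 to 6253 in the 3 groups and differences of 0.45 (SE 0.41, adjusted p = 0.518) and 0.66 (SE 0.41, adjusted p = 0.302). Cyp2d40 had 5824 to 21351, 6363 to 16704 and 7007 to 9834, with differences of -0.37 (SE 0.41, adjusted p = 0.605) and -0.56 (SE 0.41, adjusted p = 0.383). Cyp2d11, Cyp2d12 and Cyp2d34 were low, between 4.78 and 109 normalised reads in all livers, and the largest of their differences was 0.74 (SE 0.61, adjusted p = 0.474), for Cyp2d12 in PBC.

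Of the subfamilies with 1 described gene, only Cyp2g1 was called. Cyp2e1, the enzyme of ethanol and acetaminophen oxidation in hepatocytes around the central vein, read 159646, 140633, 131795 and 244261 in controls, 162058, 144333 and 178103 in PBC and 106457, 173061 and 166905 in PSC. The groups overlapped, and the differences were -0.03 (SE 0.27, adjusted p = 0.963) in PBC and -0.17 (SE 0.27, adjusted p = 0.708) in PSC, with 95% intervals of -0.61 to 0.55 and -0.75 to 0.41. Cyp2f2, which oxidises naphthalene and marks hepatocytes near the portal tract, read 37266, 49447, 29977 and 39348 in controls, 89407, 40459 and 78027 in PBC and 45869, 31486 and 40501 in PSC. PBC 7 and PBC 9 exceeded every other liver and PBC 8 did not; the PBC difference was 0.77 (SE 0.28, adjusted p = 0.0948), or 1.12 without PBC 8 (adjusted p = 0.00879). Cyp2g1 (GSMG0034199, chromosome 7, 26808892 to 26821204), best known from the olfactory lining, read 452, 87.3, 143 and 447 in controls, 244, 191 and 241 in PBC and 83.5, 42 and 52.6 in PSC. The PSC livers were below every control, although control 2 lay close to PSC 11. Cyp2g1 fell by 1.96 (SE 0.51, adjusted p = 0.0226) in PSC, and it lost its call without control 1, control 4, PSC 13 or PSC 14 (adjusted p from 0.0535 to 0.0904).

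None of the 4 Cyp2j genes was called with limma. Over all gene models 7.60% rose and 2.34% fell in PBC, and 8.25% rose and 6.48% fell in PSC. The absence of a call among 4 genes is near that background. Cyp2j5, an epoxygenase and the most abundant of them, read 30789, 29482, 28585 and 28575 in controls, 27765, 26123 and 34814 in PBC and 22694, 21465 and 22457 in PSC. All PSC livers were lower than all controls, but the difference missed the threshold at -0.40 (SE 0.17, adjusted p = 0.13). Cyp2j6 had 2822 to 4177, 2775 to 5523 and 4184 to 5298 in the 3 groups, and its PSC difference was 0.46 (SE 0.24, adjusted p = 0.219). Cyp2j9 had 133 to 533, 178 to 416 and 130.4 to 153, with a PSC difference of -0.78 (SE 0.41, adjusted p = 0.221). Cyp2j8 was at most 32.1 normalised reads in any liver, with a PSC difference of -2.25 (SE 0.99, adjusted p = 0.145), called with DESeq2 at -2.91 (adjusted p = 0.0431). Cyp2r1, a hydroxylase that activates vitamin D, read 1367, 1268, 2016 and 1598 in controls, 1477, 1104 and 1272 in PBC and 1250.3, 873 and 1035 in PSC; its PSC livers were below every control and the difference was -0.56 (SE 0.21, adjusted p = 0.0945). Cyp2u1, a fatty acid hydroxylase, read 196, 196, 174 and 79.1 in controls, 154, 87.6 and 248 in PBC and 141, 63.1 and 85.5 in PSC, with a PSC difference of -0.73 (SE 0.43, adjusted p = 0.276). Cyp2s1, which is known mainly from surface epithelia, read 31.1, 15.4, 40.9 and 27.8 in controls, 19.9, 65.3 and 8.46 in PBC and 4.69, 34 and 23 in PSC; in both genes the groups overlapped.

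Set directly against each other, the models differed in 6 of the 38 genes, all higher in PBC (15.8%, against 1.11% of all models), and in none lower in PBC with limma (1.13% of all models), where Cyp2c38 alone had an unadjusted p under 0.05; DESeq2 called 1 lower, Cyp2c38, and edgeR none. DESeq2 called 9 higher, with Cyp2c54, Cyp2c69 and Cyp2g1 in addition. The 6 were Cyp2b10, with a difference of 3.21 (SE 0.46, adjusted p = 0.00318), Cyp2c29 with 1.74 (SE 0.24, adjusted p = 0.00268), Cyp2c40 with 1.71 (SE 0.33, adjusted p = 0.0174), Cyp2c37 with 1.30 (SE 0.29, adjusted p = 0.0369), Cyp2c50 with 1.21 (SE 0.20, adjusted p = 0.00776) and Cyp2b9 with 1.17 (SE 0.28, adjusted p = 0.0446). In Cyp2b10, Cyp2c29 and Cyp2c50 PBC was called above control, and in Cyp2c40, Cyp2c37 and Cyp2b9 PSC was called below it. Cyp2c39, which fell in both models, differed by 0.10 (SE 0.27, adjusted p = 0.872) between them, with a 95% interval of -0.49 to 0.69. Cyp2a4, Cyp2b13, Cyp2c69 and Cyp2g1 fell in PSC only by their calls, but their difference between the models missed the threshold (adjusted p from 0.084 to 0.226). The median difference of the 38 genes was 0.39, beside 0.02 over all models. Only Cyp2b10 and Cyp2c29 kept their call without each single liver and under every other setting; the number called higher in PBC was 3 without PBC 7, PBC 9 or PSC 11 and 2 without PSC 13 or PSC 14.

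A list of 6 members known as female-biased in mouse liver, Cyp2a4, Cyp2b9, Cyp2b13, Cyp2c40, Cyp2c69 and Cyp2g1, held 6 of the 8 genes that fell in PSC. In PSC 6 of 6 fell, against 6.48% of all gene models, with a median of -2.07. In PBC limma with all livers called 0 of 6, with a median of -0.62 and 3 of 6 at an unadjusted p under 0.05 (Cyp2a4, Cyp2b13 and Cyp2c69, all lower), while DESeq2 called Cyp2a4 and Cyp2c69 lower and edgeR called none. The list was chosen with these results known and may lack other female-biased members. Near copies are among its genes, so its count is a description. The only male-biased member listed, Cyp2d9, was not called. Of 20 known regulators of P450 genes, none was called in PBC with limma, where 7.60% of all gene models rose and 2.34% fell. In PSC 4 of them fell and 1 rose, against 6.48% and 8.25% of all gene models, so the number that rose was near the background. The growth hormone receptor gene Ghr fell by 0.82 (SE 0.22, adjusted p = 0.0262), the repressor gene Bcl6 fell by 1.19 (SE 0.36, adjusted p = 0.04) and the repressor gene Cux2 fell by 1.72 (SE 0.53, adjusted p = 0.0438), while Nfe2l2 rose by 0.64 (SE 0.19, adjusted p = 0.041). The fifth, named after its value was seen because of the HNF4 letters above, was Hnf4a, which fell by 0.91 (SE 0.29, adjusted p = 0.0488). Cux2 is a female-biased factor itself, and Bcl6 a male-biased one. Nr1i3, the gene of CAR and also named outside the rule, was not called, at -0.61 (SE 0.23, adjusted p = 0.11) in PBC and -0.69 (SE 0.23, adjusted p = 0.06) in PSC.

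Other genes around the family did not follow one direction; over all gene models 7.60% rose and 2.34% fell in PBC, and 8.25% rose and 6.48% fell in PSC. Of 16 CAR targets outside family 2, 3 rose in PBC (Abcc3 by 0.91 (SE 0.17, adjusted p = 0.0042), Gadd45b by 2.10 (SE 0.46, adjusted p = 0.0122) and Gstm3 by 0.71 (SE 0.21, adjusted p = 0.0499)), and in PSC 6 rose and 3 fell. The 3 that rose in PBC rose in PSC too (Abcc3 by 1.08 (SE 0.17, adjusted p = 0.00118) and Gadd45b by 2.29 (SE 0.46, adjusted p = 0.00606)), and none of these 3 was called between the models. In PSC, Gsta1, a glutathione transferase, rose by 4.63 (SE 0.71, adjusted p = 0.00122) and Sult2a1, a female-biased sulfotransferase, fell by 3.88 (SE 0.62, adjusted p = 0.00158). Of 9 partners of P450 enzymes, 1 rose in PBC, and 1 rose and 2 fell in PSC. Hmox1, which degrades heme, rose by 1.63 (SE 0.29, adjusted p = 0.00362) in PBC and 1.46 (SE 0.29, adjusted p = 0.00559) in PSC, while in PSC Fech, which makes heme, fell by 0.82 (SE 0.23, adjusted p = 0.0309) and Cyb5r3, the cytochrome b5 reductase gene, fell by 0.63 (SE 0.18, adjusted p = 0.0366); DDC is known to lead to a porphyrin that blocks the enzyme Fech encodes. Por was not called in either model. Among 27 tested P450 genes of other families, 2 rose and 0 fell in PBC, and 3 rose and 6 fell in PSC, so that the numbers that rose were near the background. Cyp4f18, which is known from neutrophils, rose by 1.96 (SE 0.28, adjusted p = 0.000899) in PBC and by 2.83 (SE 0.28, adjusted p = 4.13e-05) in PSC, and Cyp3a13 rose by 0.92 (SE 0.22, adjusted p = 0.0194) in PBC. In PSC the female-biased Cyp3a44 fell by 5.08 (SE 0.65, adjusted p = 0.000346), Cyp3a16 fell by 5.03 (SE 1.13, adjusted p = 0.0111) and Cyp17a1, of steroid synthesis, fell by 2.41 (SE 0.37, adjusted p = 0.00135); the 5 others called there were Cyp3a11 and Cyp3a13, which rose, and Cyp51, Cyp39a1 and Cyp1a1, which fell. Between the models, Sult2a1, Cyp3a44 and Cyp1a2 were higher in PBC, by 3.17 (SE 0.66, adjusted p = 0.0245), 4.61 (SE 0.70, adjusted p = 0.00443) and 1.64 (SE 0.29, adjusted p = 0.0106).

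Summed over the 38 genes, family 2 gave 857183 to 1.33e+06 normalised reads in controls, 958099 to 1.33e+06 in PBC and 733472 to 819863 in PSC. The PSC sums were below every control, and PBC lay inside the control range. As a share of all normalised reads, the family took 0.877% to 1.54% in controls, 1.18% to 1.21% in PBC and 0.82% to 0.856% in PSC. Within the family sum, Cyp2c genes made up 36.9% ± 4.07 in PSC against 48.1% ± 3.22 in PBC and 47.4% ± 10.5 in controls, and Cyp2d genes 21.1% ± 0.474 against 16.4% ± 3.15 and 13.1% ± 1.75. Cyp2a genes made up 27.9% in control 4 and 8.44% to 12.6% elsewhere.

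**Figure D5:**
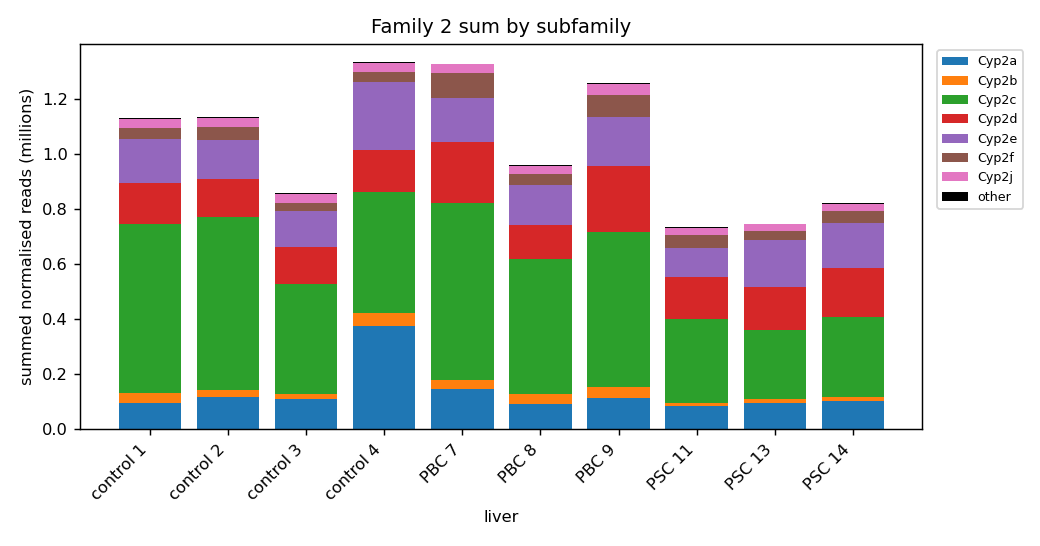
Summed normalised reads of the 38 genes in each liver, stacked by subfamily; other stands for Cyp2g1, Cyp2r1, Cyp2s1 and Cyp2u1. The 3 PSC bars, 733472 to 819863 reads, are the lowest, and the Cyp2a part of control 4 is the tallest of the Cyp2a parts.

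The summed level of 8 hepatocyte markers, none of them at 0, was 8.88e+06 to 1.00e+07 normalised reads in controls, 9.29e+06 to 1.36e+07 in PBC and 6.18e+06 to 7.37e+06 in PSC. Of these 8, Fgb rose in PBC and none was called in PSC, where their median change was -0.11. The sum of 7 cholangiocyte markers was 7665 to 13179.5 in controls, 10071 to 13553 in PBC and 54388 to 95093 in PSC; 2 of 7 rose in PBC (Sox9 and Krt19) and 6 of 7 in PSC, led by Spp1, Cldn4, Sox9 and Krt19, and Cftr was at 0 in control 1 and PBC 7. The sum of 6 neutrophil markers was 357 to 6435 in controls, 37610.3 to 112055 in PBC and 8847 to 15959 in PSC, with 6 of 6 higher in PBC and 5 of 6 in PSC, led by Camp, Ltf and Ngp in both; Ltf, Ngp and Camp were at 0 in at least 1 control. The sum of 6 stellate cell and fibroblast markers was 13504 to 21647 in controls, 15692 to 28992 in PBC and 52726 to 56778 in PSC, with 3 of 6 higher in PBC (Col1a2, Col1a1 and Col3a1) and 4 of 6 in PSC (Pdgfrb in addition). Of 6 macrophage markers 5 rose in PBC, led by Cd68, Csf1r, Vsig4 and Cd5l, and 1 in PSC (Cd68). Of 6 T and NK cell markers 4 rose in PBC (Cd8a, Nkg7, Cd3d and Cd3e) and 0 in PSC. Of 5 B and plasma cell markers 3 rose in PBC (Jchain, Cd79a and Mzb1), and in PSC Jchain rose and Ms4a1 fell. Of 5 sinusoidal endothelial markers none was called in PBC and Kdr fell in PSC. Of 11 pericentral hepatocyte genes Rhbg and Slc13a3 rose in PBC and none was called in PSC. Of 11 periportal genes Sox9, Cps1, Hal and Cdh1 rose in PBC, and Sox9 and Cdh1 in PSC. Sox9 is also 1 of the 7 cholangiocyte markers above, so its rise is not particular to periportal hepatocytes. In whole liver, the cells behind the rise of Cdh1 cannot be told either. Over all gene models 7.60% rose and 2.34% fell in PBC, and 8.25% rose and 6.48% fell in PSC. A single call in such a short list does not set that list apart from this background. The part of these cell type differences in the family 2 changes was not tested.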

How the data were processed

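RNA from 10 livers (4 control, 3 PBC, 3 PSC) was sequenced: 1 µg with RIN above 8, stranded poly(A) libraries, pairs of 75 bases, per the labels' protocols. The submitters' processing notes list STAR 2.4.0, SAMtools, Picard, FastQC, DESeq2 and the build mm10; gene models come from FASTDB, per the file headers, and no source used here names the counting tool. The deposited signal holds reads for each gene model, scaled with DESeq2. In the values examined, 100% were whole multiples of 1 step per library (tolerance 0.1), which gave 38272053 to 95422289 reads per library.

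The main test was limma 3.58.1 (R 4.3.3) with a trend on log2(value + 1), all 10 libraries in one fit by group, for the 18390 models that reached 10 in 3 or more libraries, with Benjamini-Hochberg adjustment over all of them. Folds of low genes are understated on this scale. The labels name separate mice, so p-values measure the spread between mice. Alternatives were pseudocounts of 0.5 and 8, no filter, a filter at 50, TMM, equal totals, edgeR 4.0.16 and DESeq2 1.42.0 on recovered reads (3 and 4 members higher in PBC), only the groups compared, models with a single symbol, and leaving out each library. The procedure was tested on simulated data.

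Every described member is named, with each library's value where it was called in either model or was the most abundant of its subfamily; of the other lists up to 4 called genes per comparison were named by smallest adjusted p, and Hnf4a, Cyp51, Cyp39a1, Cyp1a1, Cyp3a11, Nr1i3, Por, Dbp, Tef, Hlf and marker genes at 0 outside this rule. The members and lists were chosen with earlier results of these data known. Transcripts were from GENCODE M21 (47 of 47 matched) and promoters from RefSeq on GRCm38.p6 (31 of 38).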

Additional observations from a re-analysis of the deposited data

Results flagged for a closer look

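For each of the 38 genes and their sum, 39 in all, the values of the same 4 controls were examined. In 6 (15.4%), the gap between 1 control and the nearest other, as a share of the whole range, exceeded Dixon's 95% critical value. That value flags about 1 in 20 by chance only for independent sets of normally distributed values. Here the values were unlogged normalised reads of the same 4 livers, and near copies are among the genes. The share flagged therefore cannot be set against 1 in 20. In control 4, Cyp2a4 was at 157334 normalised reads against 29601 to 50715 in the others, Cyp2a5 at 138984 against 6377 to 11074, Cyp2a22 at 12910.2 against 2258 to 3944, and Cyp2d22 at 8243 against 5286 to 5528. In control 3, Cyp2c37 was low at 36803 against 82339 to 86487, and Cyp2d12 was high at 45.98 against 10.3 to 15.5. Leaving out the control concerned gave calls that were absent with all livers for 1 of the 6, Cyp2a5 in PBC (1.18, adjusted p = 0.0148).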

How the results depend on the processing

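Of the calls with all livers, 4 of 6 in PBC, 7 of 8 in PSC and 2 of 6 between the models held in all 19 settings tried for single genes, and no called change reversed. Members called lower in PBC numbered 5 with DESeq2 and 1 with only the groups compared; members lower in PBC than in PSC numbered 1 with DESeq2 and 1 with only the groups compared, each time Cyp2c38. Leaving out 1 library gave 3 to 8 higher and 1 to 3 lower in PBC, 0 to 1 higher and 7 to 8 lower in PSC, and 2 to 7 higher and 0 to 1 lower in PBC against PSC. Over all gene models the same ranges were 673 to 1795 and 63 to 1569, 680 to 1911 and 245 to 1902, and 61 to 260 and 43 to 303. Counts over all models also moved with DESeq2 (909 lower in PBC, 1929 lower in PSC, 590 higher and 623 lower in PBC against PSC), with only the groups compared (752 higher and 89 lower in PBC, 1853 lower in PSC), with equal totals (853 higher in PBC, 669 lower in PSC, 128 higher in PBC against PSC) and with a pseudocount of 8 (320 lower in PBC against PSC); the cause was not tested. Equal totals moved the median of all models in PBC from 0.01 to -0.12. No paired analysis was possible because the replicate numbers of the groups do not overlap.

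The split of reads between near-identical members, above all Cyp2c40 with Cyp2c67, Cyp2c68 and Cyp2c69, and Cyp2a4 with Cyp2a5, is uncertain. Members with the fewest reads (Cyp2d11, Cyp2d12, Cyp2d34, Cyp2j8, Cyp2s1) are limited by depth.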
